A study of Mus musculus with 13 samples.

Results

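Potassium channel genes were taken as every gene of the deposited table whose mouse symbol starts with Kcn. They were 78 of the 16961 genes in the table. Potassium channels set the resting potential of a cell, end action potentials and, in glia, carry potassium away from active neurons. A channel is built from pore-forming subunits (voltage-gated Kcna, Kcnb, Kcnc, Kcnd, Kcnh and Kcnq, inwardly rectifying Kcnj, tandem-pore Kcnk, and calcium- or sodium-activated Kcnma, Kcnt and Kcnn) and, often, from auxiliary subunits (Kcnab, Kcnip, Kcne, Kcnmb) or silent modifiers (Kcnf, Kcng, Kcns, Kcnv) that carry no current alone. Kcnj10 is known as the main inward rectifier of glia, and Kcnq3 is known as a subunit of the channels that carry the neuronal M-current.

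Medial amygdala of naive C57BL/6J mice was dissociated by Act-seq and run through Drop-seq, a droplet method that tags each captured RNA 3′ end with a unique molecular identifier (UMI). There were 6 male libraries (4 at 9 weeks and 2 at 8 weeks of age) and 7 female libraries (6 at 9 weeks and 1 at 8 weeks). All mice were housed alone for a day or more beforehand, on a reversed light cycle, with no other treatment. The labels do not say whether a library came from a single mouse or a pool, so p-values measure the spread between libraries.

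Of 43388 deposited cells, 24526 with at least 500 genes and no doublet call were used, and 3718151 to 7874074 UMIs per library lay behind the values. The authors' 8 classes were astrocytes (6445 cells), oligodendrocytes (3887), oligodendrocyte precursors (4163), newly formed oligodendrocytes (463), microglia (3727), endothelial cells (1463), mural cells (763) and neurons (3615). Each class was present with at least 12 cells in each of the 13 libraries, and the summed level of each class's own marker list was highest in that class. Xist and 4 Y-linked genes put all 13 libraries on the side of their sex label. Barcodes shared by 2 or more libraries numbered 19 of 24507. Levels below are a gene's counts per 1000000 UMIs (CPM) of a class in a library. The authors drew the classes from the same cells, so class levels are a description with no test.

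The 78 genes differed widely in how much RNA stood behind them. They held 159889 UMIs in all, with a median of 782 per gene, 31 for Kcnrg and 24388 for Kcnj10. The 10 most abundant members held 60.6% of these UMIs. A mean of at least 20 CPM in some class was reached by 55 genes. The other 23 peaked between 0.649 CPM (Kcnrg, in precursors) and 19.8 CPM (Kcnh2, in neurons). Among them were Kcna2, Kcna3, Kcnab3, Kcng2, Kcnh2, Kcnh4, Kcnj5, Kcnj13, Kcnj14, Kcnk4, Kcnk5, Kcnk7, Kcnk9, Kcnmb2, Kcnn1, Kcnn3, Kcnn4, Kcnq1, Kcnrg, Kcns1, Kcns3 and Kcnu1.

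A gene was called led by a class when its mean there was at least 20 CPM and at least 2 times the next class, and when its lowest library lay above the highest library of every other class. By this rule 31 of the 55 genes were led by a single class, against 22.4% of all 12003 genes that reached 20 CPM. Neurons led 19 of them, oligodendrocyte precursors 5, astrocytes 2, microglia 2, mural cells 2 and oligodendrocytes 1. Newly formed oligodendrocytes and endothelial cells led none, and none of the 55 genes was highest in either class. Of the 26 Kcn genes highest in neurons, 73.1% were led by that class, and the same rule held for 34.1% of all genes highest in neurons. Of the 9 highest in precursors, 55.6% were led by that class, against 6.84% of all genes highest there. Of the 6 highest in astrocytes, 33.3% were led by them, against 29.7% of all genes highest there. For the 3 in oligodendrocytes it was 33.3% against 29.7%, and for the 7 in mural cells 28.6% against 21.2%. For the 4 in microglia it was 50% against 31.1%. Each of these last shares rests on few genes.

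**Figure D1:**
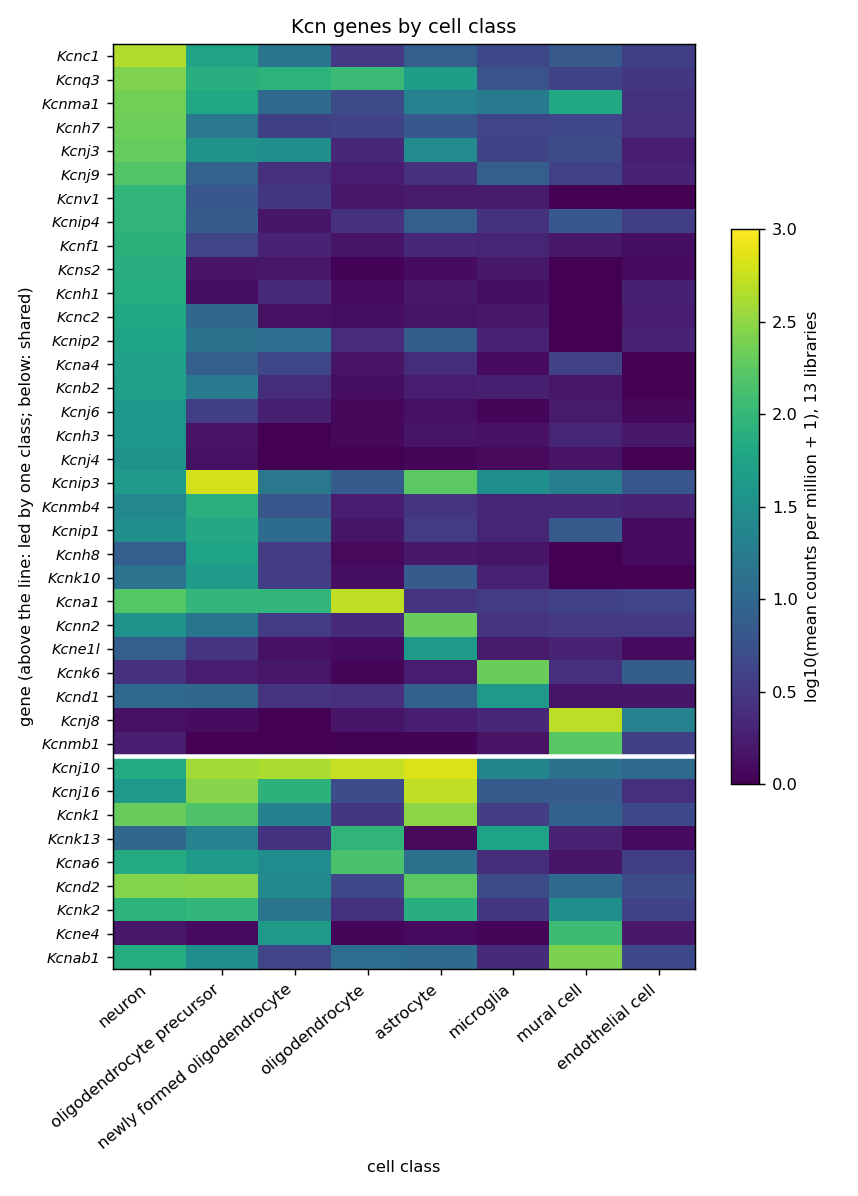
Mean level of named Kcn genes (rows) in the 8 cell classes (columns), as log10 of the mean CPM plus 1 over 13 libraries. Genes above the white line are led by a single class, most of them by neurons, while those below it, such as Kcnj10, are spread over several classes.

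Before the levels, 4 promoter sequences are shown because they belong to members with contrasting patterns: Kcnmb1 and Kcnj8 were led by mural cells, Kcnj10 was shared by astrocytes and the oligodendrocyte lineage, and Kcnc1 was led by neurons. Each is the 250 bases before the RefSeq start on GRCm38.p6, 5′ to 3′ on the gene's strand, and overlaps no exon of the GENCODE M21 annotation. Capitals mark CG dinucleotides, the sites of most DNA methylation in mammals, which read the same on both strands.
Kcnmb1, plus strand, chr11:33962763-33963012: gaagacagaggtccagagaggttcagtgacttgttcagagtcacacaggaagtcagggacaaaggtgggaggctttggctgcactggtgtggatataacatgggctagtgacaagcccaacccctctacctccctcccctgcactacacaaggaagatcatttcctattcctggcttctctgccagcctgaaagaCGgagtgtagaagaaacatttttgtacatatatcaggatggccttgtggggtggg
Kcnj8, minus strand, chr6:142571615-142571864: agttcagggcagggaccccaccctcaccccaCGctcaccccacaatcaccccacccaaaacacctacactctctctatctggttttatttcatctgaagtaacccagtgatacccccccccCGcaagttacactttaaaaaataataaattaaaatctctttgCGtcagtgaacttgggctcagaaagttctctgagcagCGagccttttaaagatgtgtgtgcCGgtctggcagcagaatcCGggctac
Kcnj10, plus strand, chr1:172340960-172341209: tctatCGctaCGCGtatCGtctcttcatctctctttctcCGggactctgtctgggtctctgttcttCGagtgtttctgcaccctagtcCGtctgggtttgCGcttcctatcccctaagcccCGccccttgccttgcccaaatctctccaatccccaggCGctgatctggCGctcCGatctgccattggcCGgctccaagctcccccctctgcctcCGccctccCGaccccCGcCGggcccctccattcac
Kcnc1, plus strand, chr7:46396218-46396467: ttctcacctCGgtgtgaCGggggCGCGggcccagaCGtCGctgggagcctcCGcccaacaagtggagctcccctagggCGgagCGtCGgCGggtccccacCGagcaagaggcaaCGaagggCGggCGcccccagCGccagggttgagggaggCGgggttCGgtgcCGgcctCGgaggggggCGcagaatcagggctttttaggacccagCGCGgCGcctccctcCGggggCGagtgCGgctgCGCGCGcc

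These windows held 1 CG in Kcnmb1, 6 in Kcnj8, 17 in Kcnj10 and 30 in Kcnc1. The median over 32851 mouse promoters was 6, and 18.8% of promoters held no more than the 1 of Kcnmb1, while 5.94% held at least the 30 of Kcnc1. Promoter sequences were at hand for 56 of the 78 members. Their 79 promoters had a median of 8 CG. Counted per gene in the richest start, the median was 15 over 13 neuron-led, 20 over 5 precursor-led and 3.5 over the 2 mural-led members. The 1 astrocyte-led member at hand held 9. Taking the richest start can raise the count of a gene with several starts, so these medians do not compare with those per promoter. Kcnf1, led by neurons, held 1.

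Families took very different shares of the Kcn UMIs from class to class. Inward rectifiers (Kcnj, 12 genes) were the largest family in astrocytes, at 46.2% ± 2.15 of Kcn UMIs (mean ± SD, n = 13 libraries), and in newly formed oligodendrocytes, at 51.0% ± 5.05. Tandem-pore channels (Kcnk) took 57.9% ± 4.34 in microglia. Kcna took 44.3% ± 4.62 in oligodendrocytes, and auxiliary subunits 27.1% ± 1.87 in precursors. Each of these shares fell when its most abundant member was left out. Without Kcnj10 the astrocyte share was 27.9%, and without Kcnk6 the microglial share was 29.3%. Without Kcna1 the oligodendrocyte share was 14.9%, and without Kcnip3 the precursor share was 8.63%. Astrocytes had a second abundant Kcnj member, Kcnj16, at 509 CPM on average against 666 CPM for Kcnj10. Mural cells divided their Kcn UMIs between Kcnj (37.3% ± 10.8) and auxiliary subunits (36.7% ± 9.16). Without Kcnj8 the mural Kcnj share was 9.75%, and without Kcnj10 that of newly formed oligodendrocytes was 20.1%. Neurons were the most even class, with Kcnc as the largest family at 13.7% ± 1.17 and Kcnj next at 12.8% ± 1.64, which did not differ beyond their spread.

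**Figure D2:**
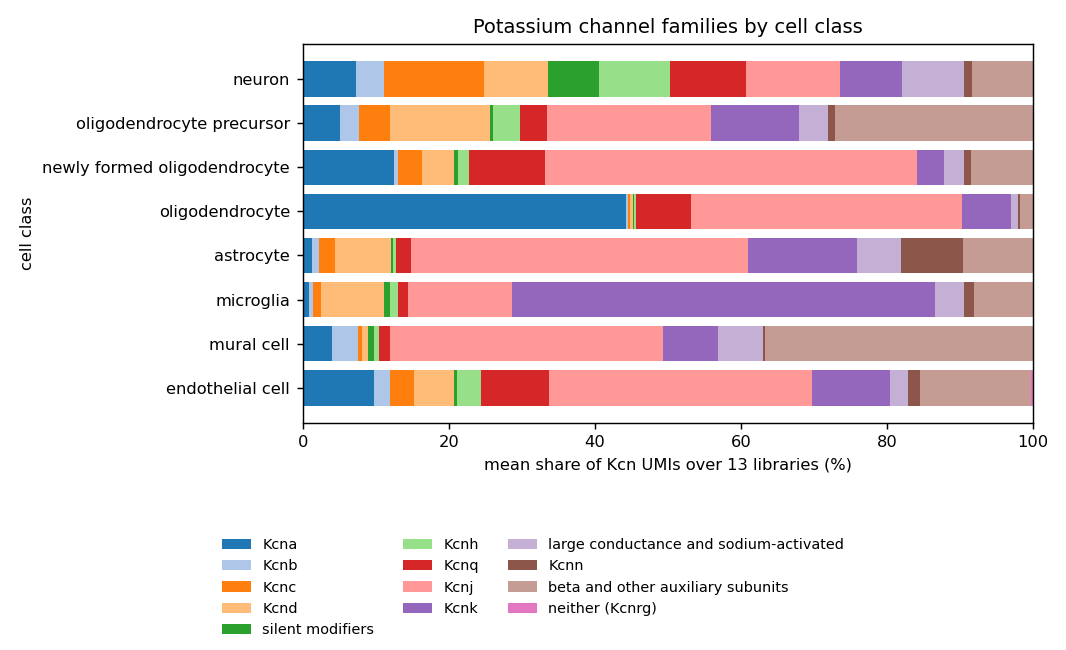
Mean share of Kcn UMIs held by each family (x axis, percent) in the 8 classes (y axis), over 13 libraries. Kcnj holds 46.2% in astrocytes, Kcnk 57.9% in microglia and Kcna 44.3% in oligodendrocytes, whereas no family exceeds 13.7% in neurons.

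The summed level of all members ran from neurons (4416 CPM ± 375) through precursors (3154 ± 184) and astrocytes (2621 ± 166) to mural cells (1597 ± 282), oligodendrocytes (1500 ± 108), newly formed oligodendrocytes (1099 ± 130), microglia (524 ± 49.6) and endothelial cells (142 ± 35.0). Mural cells and oligodendrocytes were neighbours that did not differ beyond their spread. Neurons held UMIs of all 78 genes, and 43 of these reached 20 CPM there, against 26 in precursors and 15 in astrocytes. In endothelial cells only Kcnj8 did (lowest library 3.77 CPM, median 15.1, highest 49.2, mean 20.2). The endothelial sums also held mural markers at 9.40% of their mural level, and the part of such RNA in the endothelial Kcnj8 value was not tested.

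Among the inward rectifiers, Kcnj10 was a glial gene shared across classes. Its lowest, median and highest library were 626, 658 and 765 CPM in astrocytes. They were 467, 539 and 597 CPM in oligodendrocytes. They were 294, 429 and 527 CPM in newly formed oligodendrocytes and 313, 372 and 485 CPM in precursors. Astrocyte libraries did not overlap any other class, oligodendrocytes overlapped newly formed oligodendrocytes and precursors, and the last pair overlapped each other.

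Kcnj10 means elsewhere were 69.9 CPM ± 36.9 in neurons, 21.3 ± 4.41 in microglia, 12.1 ± 11.7 in mural cells and 10.0 ± 10.0 in endothelial cells. The neuron value ran from 1.67 to 135 CPM across libraries. It was 17.2 ± 21.5 CPM in neurons with Slc32a1 UMIs and 15.7 ± 10.3 CPM in neurons with Slc17a6 UMIs. The 5 astrocyte markers (Aqp4, Slc1a3, Gja1, Aldoc, Slc1a2) summed to 370 to 4217 CPM in the neuron class, 300 to 1809 CPM in Slc32a1 neurons and 331 to 1399 CPM in Slc17a6 neurons, and none was at 0. The part of astrocyte RNA in the neuronal Kcnj10 values was not tested.

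Kcnj16, whose product pairs with that of Kcnj10, followed it only in part. Its libraries ran from 447 through 506 to 584 CPM in astrocytes and from 231 through 285 to 310 CPM in precursors, with no overlap between these classes. In newly formed oligodendrocytes they fell to 39.0, 77.9 and 150 CPM. In oligodendrocytes, which kept Kcnj10, Kcnj16 was at 4.14 CPM ± 2.83. Neurons had 39.7 ± 18.7 CPM, and microglia, mural cells and endothelial cells had at most 6.22 CPM on average. Along the oligodendrocyte lineage, Kcnj10 thus stayed between 379 and 537 CPM in the class means while the Kcnj16 mean went from 282 through 84.4 to 4.14 CPM.

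Kcnj8, the pore of a vascular ATP-sensitive channel, was led by mural cells, where its libraries ran from 186 through 402 to 875 CPM. The next class, endothelial cells, had 20.2 CPM ± 12.9, and its highest library (49.2 CPM) lay below the lowest mural library. Every other class had a mean of 1.2 CPM or less, and newly formed oligodendrocytes held no UMI. At least 1 UMI of Kcnj8 was seen in 34.6% of mural cells (29.2% when each cell was thinned to 1000 UMIs) and in 0.103% of oligodendrocytes (0.0270% thinned), with median depths of 1633 and 3182 UMIs. Abcc9, which encodes the sulfonylurea receptor that joins Kcnj8 and lies 16247 bases from it on chromosome 6, was also led by mural cells (363 CPM ± 128, next endothelial cells at 27.7).

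Kcnj2, a strong rectifier, was highest in microglia, at 27.6, 34.7 and 49.6 CPM in the lowest, median and highest library. Endothelial cells (14.5 CPM ± 7.53), neurons (13.9 ± 4.33) and oligodendrocytes (10.0 ± 3.65) came next and overlapped each other. The highest library outside microglia, at 28.7 CPM, lay above the lowest microglial library. The remaining classes had at most 2.26 CPM. Kcnj12, of the same subfamily, was highest in mural cells (65.4 CPM ± 31.1) and next in newly formed oligodendrocytes (17.2 ± 14.4). Its lowest mural library (32.9 CPM) lay below the highest library elsewhere (52.0 CPM). The G-protein-gated subunits Kcnj3 (194 CPM ± 32.1), Kcnj6 (37.9 ± 9.13) and Kcnj9 (152 ± 17.3) and the rectifier Kcnj4 (33.3 ± 9.54) were led by neurons, by 5.87 to 75.4 times over the next class. Kcnj9 and Kcnj10 lie 11891 bases apart on chromosome 1 and differed in class, since Kcnj9 was at most 7.94 CPM on average outside neurons. Kcnj16 and Kcnj2, 38195 bases apart on chromosome 11, likewise peaked in different classes.

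The tandem-pore channels divided between immune cells, oligodendrocytes and the other cells of the tissue. Kcnk6 was led by microglia, with libraries at 156, 213 and 302 CPM, and its mean in the next class was 6.71 CPM ± 5.41 (endothelial cells), a 31.8-fold step. All other classes averaged 1.66 CPM or less. A UMI of Kcnk6 was found in 30.6% of microglia (18.2% thinned, median depth 1788 UMIs) and 0.0515% of oligodendrocytes (0.0270% thinned).

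Kcnk13, a channel known to set the resting potential of microglia, was higher in oligodendrocytes than in microglia here. Its libraries ran from 62.8 through 93.7 to 127 CPM in oligodendrocytes and from 35.3 through 53.2 to 79.9 CPM in microglia, and the ranges overlapped. Precursors had 20.1 CPM ± 4.95, neurons 9.2 ± 3.54, newly formed oligodendrocytes 1.76 ± 2.87, mural cells 0.999 ± 3.6, endothelial cells 0.230 ± 0.830 and astrocytes 0.194 ± 0.379. The newly formed oligodendrocytes therefore lay below both the precursors and the mature cells. Microglia held oligodendrocyte markers at 0.485% of their oligodendrocyte level. Kcnk13 in microglia stood at 58.9% of its oligodendrocyte mean, and the part of oligodendrocyte RNA in this value was not tested.

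Kcnk1 and Kcnk2, background leak channels, were found in astrocytes, neurons and precursors. Kcnk1 had 303 CPM ± 48.1 in astrocytes, 198 ± 41.6 in neurons and 148 ± 11.0 in precursors, with overlap between neighbours in this order. It had 20.04 ± 16.5 CPM in newly formed oligodendrocytes, 7.47 ± 14.3 in mural cells and 3.53 CPM or less in the rest. Kcnk2 had 96.9 CPM ± 15.9 in precursors, 86.4 ± 18.6 in neurons and 75.7 ± 16.6 in astrocytes, which did not differ beyond their spread, 30.0 ± 19.9 in mural cells, 13.4 ± 10.5 in newly formed oligodendrocytes and 3.02 CPM or less in the rest. Most Kcnk2 UMIs of the mural class lay in cells without Kcnj8 or Kcnmb1 UMIs, described below. The related Kcnk10 was led by precursors (44.1 CPM ± 9.78, next neurons at 12.7). Kcnk3 reached 79.6 CPM ± 33.4 in mural cells and 64.8 ± 8.69 in precursors, and Kcnk12 reached 31.0 CPM in microglia and 24 CPM in neurons.

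Among the voltage-gated channels, Kcna1 was led by oligodendrocytes. Its libraries ran from 356 through 538 to 684 CPM there and from 86.2 through 158 to 226 CPM in neurons, without overlap. Precursors had 95.3 CPM ± 13.5, newly formed oligodendrocytes 92.1 ± 43.6, and the other classes at most 3.18 CPM on average. Kcna6, 61944 bases from Kcna1 on chromosome 6, was also highest in oligodendrocytes (136 CPM ± 12.3) and next in neurons (69.9 ± 11.2), short of the 2-fold step. Kcna6 overlaps the antisense gene Gm26673, and the sources at hand do not say whether strand was used in counting, so reads of the pair may be mixed. Kcna2, a frequent partner of Kcna1 in axons, stayed low at 17.1 CPM ± 4.53 in neurons, 15.1 ± 4.33 in astrocytes, 14.2 ± 6.72 in newly formed oligodendrocytes, 9.08 ± 3.33 in oligodendrocytes and 8.67 ± 2.24 in precursors. It had at most 1.53 CPM in mural cells and microglia and no UMI in endothelial cells.

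Kcnc1, a fast delayed rectifier, was led by neurons (327, 454 and 542 CPM in the lowest, median and highest library). Precursors came next at 55.5 CPM ± 12.5, newly formed oligodendrocytes had 13.9 ± 9.31, and the rest had 7.17 CPM or less. A Kcnc1 UMI was present in 50.01% of neurons (33.7% thinned) and in 0.798% of oligodendrocytes (0.189% thinned). The family member Kcnc2 was led by neurons too (60.9 CPM ± 12.2). Kcnb2, a slower delayed rectifier, was led by neurons (50.2 CPM ± 8.75). Kcna4 was led by neurons as well (51.6 CPM ± 13.3, next precursors at 7.01).

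The A-type channel gene Kcnd2 was shared by precursors (214, 287 and 399 CPM), neurons (202, 292 and 333 CPM) and astrocytes (130, 168 and 233 CPM). Precursors and neurons did not differ beyond their spread, and the astrocyte range reached into both. Newly formed oligodendrocytes had 26.6 CPM ± 21, mural cells 9.5 ± 17.7, and the others 4.10 CPM or less. Kcnd3 followed the same classes at 129 CPM ± 19.3 in precursors and 100 ± 20.5 in neurons, with 21.8 ± 13.5 in astrocytes. Kcnd1 was led by microglia (22.2, 38.4 and 65.9 CPM), above the highest library elsewhere (17.7 CPM).

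The Kcnip subunits, which bind Kcnd channels, went to different classes. Kcnip3 was led by precursors (502, 629 and 765 CPM), with 174 CPM ± 24.5 in astrocytes, and Kcnip1 was led by precursors by a small margin (64.2 CPM ± 12.8 against 30.5 ± 6.73 in neurons). Kcnip4 was led by neurons (55.6, 87.1 and 158 CPM). It had 7.0 CPM ± 3.6 in astrocytes, 6.32 ± 2.89 in precursors, 5.47 ± 7.29 in mural cells and 2.60 CPM or less in the rest. Kcnip2 was led by neurons at 53.9 CPM ± 10.2. In neurons Kcnip3 itself was at 43.5 CPM ± 13.7, so Kcnip4 was the most abundant of the 4 there and Kcnip3 in precursors.

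Kcnq3 was led by neurons and was found in most glia as well. It had 206, 256 and 331 CPM in neurons, but also 110 CPM ± 14.5 in oligodendrocytes, 85.6 ± 29.3 in newly formed oligodendrocytes, 77.4 ± 15.2 in precursors and 47.4 ± 12.2 in astrocytes. It was at most 4.82 CPM in microglia and vessel cells.

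Of the Kcnh genes, neurons led Kcnh7 (218 CPM ± 47.4), Kcnh1 (70.9 ± 10.9) and Kcnh3 (37.8 ± 9.86), and precursors led Kcnh8 (53.7 CPM ± 12.3, next neurons at 6.96). Kcnh7, Kcnh1 and Kcnh3 each overlap another gene of the table. Of the 7 silent modifiers, 3 were led by neurons: Kcnv1 (92.6 CPM ± 20.8), Kcnf1 (84.1 ± 13.7) and Kcns2 (72.1 ± 16.1) stood 16.7 to 117 times above the next class. Kcng1 (27.7 CPM) was highest in neurons without being led by them, Kcng2 (19.0) and Kcns1 (12.7) were highest there below 20 CPM, and Kcns3 was highest in mural cells (10.2 CPM). Their family held 6.98% ± 0.911 of Kcn UMIs in neurons and no more than 0.881% in any other class.

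Calcium- and sodium-activated channels were found in neurons, glia and mural cells. Kcnma1, the large-conductance pore, was led by neurons (195, 226 and 267 CPM). It had 60.9 CPM ± 8.29 in precursors, 60.4 ± 28.6 in mural cells, 20.6 ± 4.77 in astrocytes, 16.8 ± 3.49 in microglia, 9.72 ± 8.32 in newly formed oligodendrocytes, 4.04 ± 2.13 in oligodendrocytes and 1.75 ± 2.89 in endothelial cells. Its beta subunits split by class, with Kcnmb1 led by mural cells (115, 182 and 223 CPM) and Kcnmb4 by precursors (65.5, 80.3 and 95.4 CPM, next neurons at 23.9 CPM). Kcnmb1 lies inside Kcnip1 on the opposite strand of chromosome 11, and Kcnip1 had 6.1 CPM ± 13 in mural cells while Kcnmb1 had no UMI in precursors. Kcnt1 was at 134 CPM ± 34.9 in astrocytes and 95.4 ± 15.4 in neurons.

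Kcnn2, a small-conductance calcium-activated channel, was led by astrocytes (131, 185 and 296 CPM), with 34.1 CPM ± 10.1 in neurons and 13.7 ± 4.59 in precursors. A UMI was found in 30.1% of astrocytes (17.5% thinned) and 0.515% of oligodendrocytes (0.0270% thinned). Kcne1l, an auxiliary subunit, was the other astrocyte-led member (42.0 CPM ± 9.39, next neurons at 7.19). A further auxiliary gene, Kcne4, had 114 CPM ± 47.9 in mural cells and 41.8 ± 22.3 in newly formed oligodendrocytes, and 0.582 CPM or less in every other class. Kcnab1, a beta subunit of Kcna channels, had 255 CPM ± 91.0 in mural cells and 70.5 ± 20.6 in neurons. It had 28.7 ± 8.31 in precursors, 11.2 ± 4.14 in oligodendrocytes, 10.1 ± 4.05 in astrocytes and 3.56 CPM or less in the rest.

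Within the mural class some channel genes differed between cells with Kcnj8 and cells with Kcnmb1. Of 763 mural cells, 226 had Kcnj8 UMIs without Kcnmb1, 141 had Kcnmb1 UMIs without Kcnj8, 38 had both and 358 had neither. This split used those 2 genes, was chosen after their values were seen and carries no test. Median depth was 1430 UMIs in the Kcnj8 cells and 3309 in the Kcnmb1 cells. At least 10 cells came from 10 libraries for the Kcnj8 cells and from 8 for the Kcnmb1 cells. Kcnab1 was at 5.54 CPM in Kcnj8 cells (95% Poisson interval 0.671 to 20.02, counting error only) and 452 CPM in Kcnmb1 cells (396 to 513), and was higher in the latter in 13 of 13 libraries. Kcnma1 stood at 2.77 CPM (0.0701 to 15.4) against 105 CPM (79.0 to 136) and Kcna5 at 2.77 CPM (0.0701 to 15.4) against 101 CPM (75.7 to 132). Kcnma1, the pore that Kcnmb1 regulates, was thus among the genes higher in the Kcnmb1 cells. The 358 cells with neither gene lay in between, at 243 CPM of Kcnab1, 59.0 CPM of Kcnma1 and 51.9 CPM of Kcna5.

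Abcc9 went with Kcnj8, at 1266 CPM (1153 to 1388) against 21 CPM (10.5 to 37.5) in Kcnmb1 cells, in 13 of 13 libraries. Kcne4 was at 177 CPM (137 to 226) in Kcnj8 cells and 111 CPM (83.9 to 143) in Kcnmb1 cells, and its direction differed by library, with 7 higher in the former and 6 in the latter. The smooth muscle marker Acta2 was at 11.1 CPM in Kcnj8 cells and 15738 CPM in Kcnmb1 cells, and the pericyte-rich marker Vtn at 16893 and 955 CPM. The class also held leptomeningeal markers (Dcn, Lum, Col1a1), summed to 1960 CPM on average. Dcn was at 3188 CPM in the cells with neither gene, 424 CPM in the Kcnj8 cells and 3.81 CPM in the Kcnmb1 cells. Kcnk2 was at 63.2 CPM (45 UMIs) in the cells with neither gene. It was at 8.31 CPM in the Kcnj8 cells and 5.72 CPM in the Kcnmb1 cells, with 3 UMIs in each. The part of these cells and of the varying mix in the spread of mural Kcn levels was not tested.

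**Figure D3:**
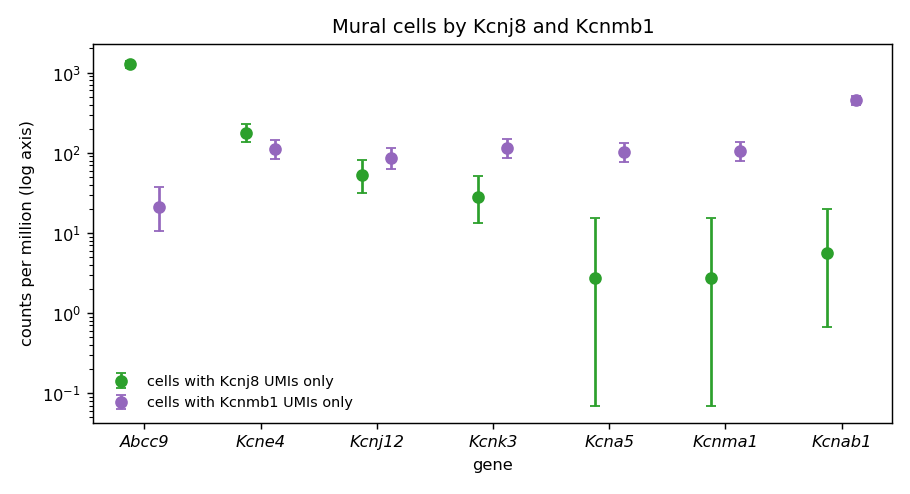
Level of 7 genes (x axis) in mural cells with Kcnj8 UMIs only (226 cells) and with Kcnmb1 UMIs only (141 cells), in CPM on a log axis with 95% Poisson intervals over the pooled UMIs of 13 libraries. Abcc9 is at 1266 and 21 CPM, and Kcnab1 at 5.54 and 452 CPM.

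Neurons were then compared by transmitter type. Slc32a1, the vesicular transporter of inhibitory neurons, was found without Slc17a6 in 1371 neurons (median 2275 UMIs). Slc17a6, a vesicular glutamate transporter, was found without Slc32a1 in 1255 neurons (median 2145 UMIs). Another 51 had both and 938 neither. The comparison used edgeR's quasi-likelihood test on summed counts with the library as a block, two-sided, with Benjamini-Hochberg adjustment over 6193 genes. Of 38 Kcn genes tested, 6 were higher in Slc32a1 neurons and 13 lower at an adjusted p under 0.05. Over all genes tested, 8.77% were higher and 8.9% lower, together 17.7%. The median log2 fold change was -0.05 over the Kcn genes and 0.00 over all genes.

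The genes lower in Slc32a1 neurons included 3 of the silent modifiers that neurons led. Kcnv1 ran from 25.5 through 67.8 to 98.2 CPM in Slc32a1 neurons and from 110 through 127 to 248 CPM in Slc17a6 neurons. The groups did not overlap, and the Slc17a6 value was higher in 13 of 13 libraries. Its log2 fold change (Slc32a1 minus Slc17a6) was -1.09 ± 0.14 (SE, edgeR adjusted p = 1.03e-08). Kcns2 fell by 0.83 ± 0.14 on the log2 scale (57.1 against 105 CPM, lower in 13 of 13 libraries, edgeR adjusted p = 4.05e-06). Kcnf1 fell by 0.49 ± 0.13 (78.1 against 109 CPM, lower in 11 of 13, edgeR adjusted p = 0.00392), and Kcng1 fell by 0.64 ± 0.20 (24.2 against 38.0 CPM, lower in 10 of 13, edgeR adjusted p = 0.0178). The Kcng1 call was lost with DESeq2 (adjusted p = 0.0853). The gene passed the filter on low counts in 6 of the 13 fits that leave out a library. This filter can be passed on the counts of a single group, so a gene can enter the test through the group where it is high. Whether Kcng1, at 24.2 CPM in Slc32a1 neurons, entered in this way was not tested. It is counted among the 13 lower genes, and no direction is read from it here. The family held 5.86% ± 0.873 of Kcn UMIs in Slc32a1 neurons and 8.84% ± 1.12 in Slc17a6 neurons.

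The M-current gene Kcnq3 ran from 141 through 215 to 316 CPM in Slc32a1 neurons and from 199 through 351 to 516 CPM in Slc17a6 neurons. The ranges overlapped, but Kcnq3 was lower in Slc32a1 neurons in 13 of 13 libraries, with a log2 fold change of -0.70 ± 0.10 (edgeR adjusted p = 2.24e-07). Kcnb2 fell by 0.99 ± 0.17 (36.1 against 75.9 CPM, lower in 12 of 13 libraries, edgeR adjusted p = 9.81e-06).

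Of the Kcnh genes, Kcnh7 fell by 0.54 ± 0.11 (194 against 294 CPM, lower in 11 of 13 libraries, edgeR adjusted p = 0.000319) and Kcnh3 fell by 0.70 ± 0.20 (28.5 against 46.7 CPM, lower in 12 of 13, adjusted p = 0.00963). Kcnh5 was instead higher in Slc32a1 neurons, by 0.64 ± 0.17 (94.1 against 60.5 CPM, in 10 of 13, edgeR adjusted p = 0.00627). Kcna4 fell by 0.58 ± 0.16 (44.0 against 69.5 CPM, edgeR adjusted p = 0.00777), Kcnc4 fell by 0.61 ± 0.17 (34.4 against 52.2 CPM, edgeR adjusted p = 0.00788), and Kcnip2 fell by 0.48 ± 0.15 (46.7 against 66.2 CPM, edgeR adjusted p = 0.0163). With DESeq2 the calls of Kcnip2 (adjusted p = 0.0699) and Kcnh3 (0.05003, just above the threshold) were lost, and without the library block that of Kcnh5 was lost (edgeR adjusted p = 0.0625).

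Kcnma1 fell by 0.33 ± 0.10 (216 against 278 CPM, lower in 11 of 13 libraries, edgeR adjusted p = 0.0123). Kcnj9, one of the G-protein-gated subunits, fell by 0.32 ± 0.11 (148 against 190 CPM, edgeR adjusted p = 0.0377). Its call was lost when any of male replicates 2, 3, 4 and 6 or female replicates 1, 2 and 6 was left out. The Kcnj9 call was also lost with DESeq2 and without the library block, with an adjusted p of up to 0.149 over all alternatives. Kcnj3, Kcnj4 and Kcnj6 did not pass.

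Kcnc1 was the most abundant gene higher in Slc32a1 neurons. It ran from 459 through 587 to 685 CPM there and from 244 through 432 to 610 CPM in Slc17a6 neurons, so the ranges overlapped, and it was higher in 12 of 13 libraries. The log2 fold change was 0.56 ± 0.09 (edgeR adjusted p = 3.83e-06). Kcnc2, of the same family, did not pass. Kcnn2 was higher by 1.07 ± 0.19 (43.5 against 21.2 CPM, in 13 of 13 libraries, edgeR adjusted p = 1.71e-05), Kcnip4 by 0.51 ± 0.13 (111 against 77.7 CPM, in 11 of 13, edgeR adjusted p = 0.00246) and Kcnip1 by 0.71 ± 0.22 (40.3 against 25.1 CPM, in 11 of 13, edgeR adjusted p = 0.0169).

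Kcnt2, a sodium-activated channel, was higher by 0.46 ± 0.16 (58.3 against 43.1 CPM, edgeR adjusted p = 0.0392). Its call was lost without male replicate 4, 5 or 6 or female replicate 3, 4, 5, 6 or 7. The Kcnt2 call was also lost with DESeq2, without the library block, and when neurons needed at least 2 UMIs of their transporter. Its adjusted p was up to 0.148 over all alternatives. Kcnip subunits differed in both directions, with Kcnip1 and Kcnip4 higher and Kcnip2 lower in Slc32a1 neurons. Glial RNA was seen in both groups: 43 of 1371 Slc32a1 neurons and 30 of 1255 Slc17a6 neurons carried glial markers above 1% of their UMIs. Without these cells the same 19 genes passed. Glial RNA at lower shares stays in the kept cells, so this removal does not measure its part. That part in genes such as Kcnn2, led by astrocytes, was not tested.

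**Figure D4:**
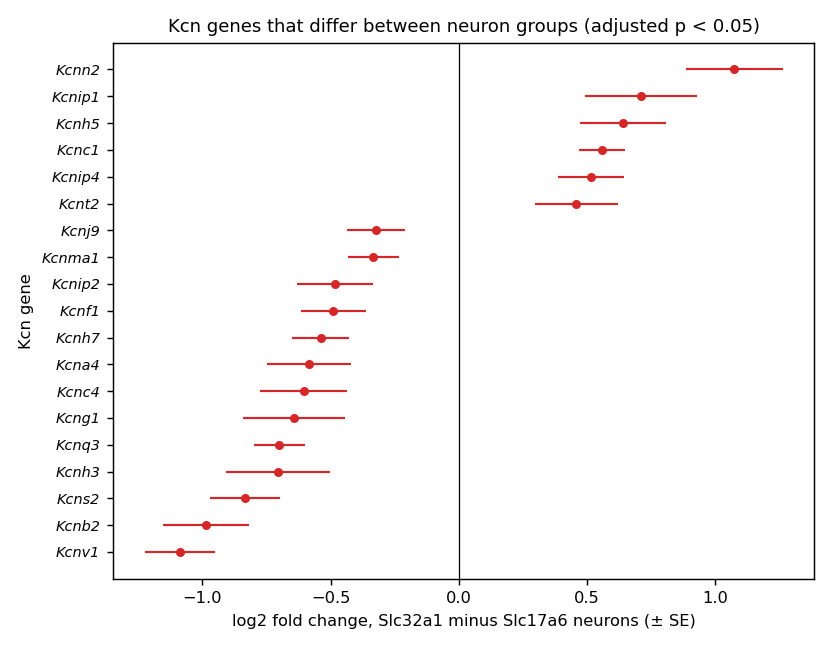
Log2 fold change with its standard error for the 19 Kcn genes that passed an adjusted p of 0.05 in edgeR between Slc32a1 and Slc17a6 neurons (13 libraries, x axis) by gene (y axis). Of these, 6 lie to the right of 0, with Kcnn2 farthest at 1.07, and 13 to the left, with Kcnv1 farthest at -1.09.

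Other genes that work with potassium channels (25 genes: channel partners, Hcn channels, sodium pumps and potassium-chloride transporters) were counted in the same test, where 5 of 18 were higher in Slc32a1 neurons and 0 lower at an adjusted p under 0.05, against 8.77% higher and 8.9% lower over all genes. Among them were the sodium pump subunits Atp1b1 (log2 0.46 ± 0.07) and Atp1b3 (0.39 ± 0.09), the Kcna-associated secreted protein gene Lgi1 (0.54 ± 0.09) and the cotransporter Slc12a2 (0.35 ± 0.12), with edgeR adjusted p of 1.64e-06, 0.00128, 1.4e-05 and 0.0394. By class, 16 of the 20 partners that reached 20 CPM were led by a single class, 11 of them by neurons, against 22.4% of all genes that reached 20 CPM. The sodium pump gene Atp1b2 was led by astrocytes (2433 CPM ± 140).

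The comparison of males with females within each class used the same edgeR test without a block. In astrocytes 2 of 21 Kcn genes tested passed, against 1.16% of all genes, and in oligodendrocytes 1 of 9, against 0.261%. Kcnn2 and Kcnd3 were higher in male astrocytes, and Kcnk13 was lower in male oligodendrocytes.

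Kcnn2 in astrocytes ran from 184 through 259 to 296 CPM in the 6 male libraries. It ran from 131 through 172 to 191 CPM in the 7 female libraries. Male replicate 5 lay among the females, male replicate 4 just above them at 193 CPM, and the other 4 males at 248 CPM or more. The log2 fold change (male minus female) was 0.48 ± 0.10 (244 ± 45.8 against 168 ± 22.5 CPM, edgeR adjusted p = 0.00523). It passed in all 19 alternatives, with an adjusted p of 0.0326 at most. In the other classes tested, Kcnn2 differed by 0.28 ± 0.26 in precursors and 0.03 ± 0.22 in neurons, without passing, and a difference between classes was not tested.

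Kcnd3 in astrocytes ran from 13.2 through 31.5 to 49.1 CPM in males and from 5.85 through 13.9 to 17.7 CPM in females. Male replicate 5 lay among the females, and male replicate 4 just above them at 18.8 CPM. These were also the lowest male libraries for Kcnn2, so the Kcnn2 and Kcnd3 calls share a split among the males. The log2 fold change of Kcnd3 was 1.13 ± 0.28 (edgeR adjusted p = 0.0479). Its call was lost in 13 of 19 alternatives, among them leaving out any of male replicates 1, 2, 3 and 6 or female replicates 1, 2, 3, 4, 6 and 7, with an adjusted p of up to 0.238. Neuron markers summed to 198 to 350 CPM in male astrocytes and 161 to 280 CPM in female astrocytes, and precursor markers to 197 to 270 and 196 to 275 CPM. None was at 0, and their part in the Kcnd3 value was not tested. Elsewhere Kcnd3 differed between males and females by -0.07 ± 0.10 in precursors and -0.20 ± 0.15 in neurons. It differed by -0.52 ± 0.19 in Slc32a1 neurons and 0.30 ± 0.19 in Slc17a6 neurons. None of these passed, and a difference between classes was not tested.

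Kcnk13 in oligodendrocytes ran from 62.8 through 73.4 to 97.1 CPM in males and from 89.2 through 104 to 127 CPM in females. A single male library, replicate 5, reached into the female range. The log2 fold change was -0.52 ± 0.11 (74.5 ± 12.0 against 106 ± 14.2 CPM, edgeR adjusted p = 0.0161). The call was lost without male replicate 2 (adjusted p = 0.0668 in edgeR), male replicate 4 (0.0689) or female replicate 4 (0.0751). Microglial markers, a second source of Kcnk13 RNA, summed to 14 to 53 CPM in male and 19 to 111 CPM in female oligodendrocytes, none at 0, and their part was not tested. In microglia Kcnk13 differed by -0.01 ± 0.17, which did not pass, and a difference between classes was not tested.

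**Figure D5:**
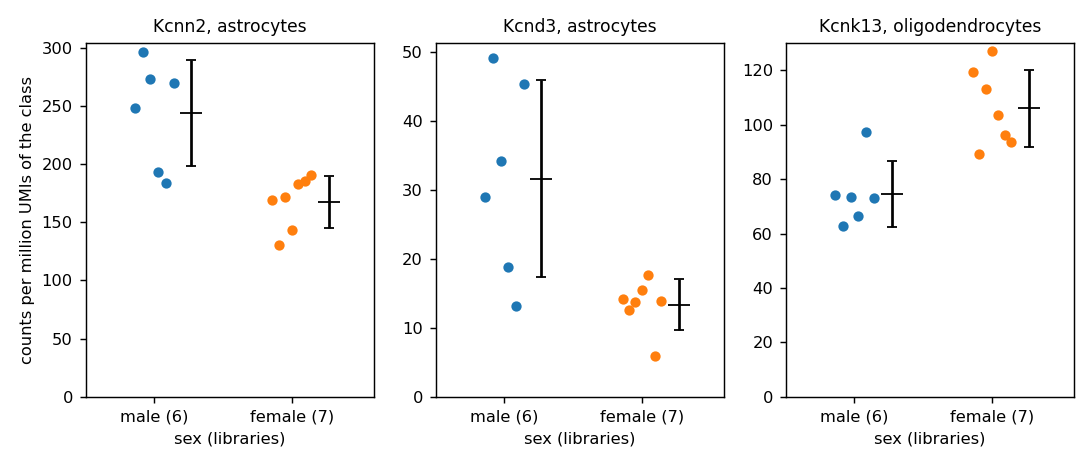
Levels in CPM of Kcnn2 and Kcnd3 in astrocytes and Kcnk13 in oligodendrocytes (y axes) for each of 6 male and 7 female libraries (points), with mean and SD beside them. Males average 244 CPM of Kcnn2 against 168 in females, and 74.5 CPM of Kcnk13 against 106, and each pair of ranges overlaps.

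No Kcn gene passed between the sexes in the other groups with edgeR, DESeq2 or limma voom. Over all genes tested, the share that passed was 0.131% in precursors, 0.0889% in newly formed oligodendrocytes, 0.349% in microglia, 0.123% in mural cells, 0.0623% in neurons, 0.0892% in Slc32a1 neurons and 0.0832% in Slc17a6 neurons. Kcn genes with an unadjusted p under 0.05 numbered 3 of 34 in precursors, where 647 of all 10651 genes had one. The counts were 1 of 4 against 175 of 4497 in newly formed oligodendrocytes, 1 of 7 against 540 of 7458 in microglia and 1 of 5 against 213 of 3261 in mural cells. They were 6 of 52 against 591 of 9635 in neurons, 5 of 40 against 541 of 6724 in Slc32a1 neurons and 5 of 36 against 239 of 6009 in Slc17a6 neurons. No Kcn gene was abundant enough to be tested in endothelial cells, where 1.28% of all genes passed.

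The smallest p among these groups belonged to Kcna4 in neurons, at 41.2 CPM ± 2.97 in males and 60.6 ± 12.0 in females (log2 -0.59 ± 0.16, edgeR adjusted p = 0.600). It was also the gene with the smallest p in Slc17a6 neurons (log2 -0.71 ± 0.23, edgeR adjusted p = 0.998). Kcnk6 in microglia was at 241 ± 43.7 CPM in males and 190 ± 21.1 in females (log2 0.32 ± 0.10, edgeR adjusted p = 0.206), and it passed only without male replicate 5 (edgeR adjusted p = 0.0243). The corresponding genes elsewhere were Kcnh7 in Slc32a1 neurons (log2 -0.48 ± 0.16, edgeR adjusted p = 0.489), Kcne4 in mural cells (0.60 ± 0.25, edgeR adjusted p = 0.605), Kcna1 in newly formed oligodendrocytes (-0.64 ± 0.27, edgeR adjusted p = 0.999) and Kcnt1 in precursors (0.50 ± 0.19, edgeR adjusted p = 0.620). None of these differences was larger than the spread between libraries allowed after adjustment, which does not show that the sexes are alike. No partner gene passed in any sex comparison.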

How the data were processed

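The authors deposited Drop-seq data as UMI counts, genes by cells, with library and class in each cell name. The submitters' processing notes name bcl2fastq 2.17.1.14, STAR 2.5.0a and genome mm10; counting settings and strand are not given in the sources used here. Cells with at least 500 genes were kept after removal of 282 Scrublet doublets (scanpy, 1.14%). Counts were summed per class and library (at least 10 cells) and tested with edgeR 4.0.16 (TMM, quasi-likelihood, filterByExpr, Benjamini-Hochberg over all genes, threshold 0.05). The fits by sex were tested on simulated data for astrocytes and neurons. The fit with a library block and the descriptions were not tested in this way. CPM levels are unscaled, and fold changes use TMM. Tests by sex had no covariate; neuron groups were blocked by library. Alternatives were DESeq2 1.42.0, limma voom 3.58.1, other filters, age, a replicate block and leaving out each library. Members, gene lists and tests were chosen with earlier results of these data known. Named genes were those led by a class, those past a threshold, the smallest p where none passed, the top member of each family and a list of 17. Positions are from GENCODE M21 (GRCm38). Some of these genes are not reported here by name; counts and family sums include them.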

Additional observations from a re-analysis of the deposited data

Results flagged for a closer look

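In 2 of 20 groups of 6 or 7 libraries of a sex, the most extreme library stood apart from the rest by more than Dixon's 95% limit; chance flags about 1 in 20 groups. Kcnd3 in astrocytes was at 5.85 CPM in female replicate 6, against 12.6 CPM in the next lowest female library. Kcnk13 in oligodendrocytes was at 97.1 CPM in male replicate 5, against 74.0 CPM in the next highest male library.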

How the results depend on the processing

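The number of genes led by a class was 23 to 34 over all alternatives, and 31 to 34 with a library left out. For sex in astrocytes the count of 2 became 1 with limma voom, 1 with all deposited cells and 4 with no filter on low counts, and ranged from 1 to 4 with a library left out. In oligodendrocytes the count of 1 became 2 with no filter, and 0 to 2 with a library left out; in microglia it was 0 to 1. Between neuron groups the count was 14 to 26 over all alternatives and 16 to 19 with a library left out, no called gene turned direction, and 13 of 19 genes passed in every alternative that tested them. The partner count, whose alternatives were added after seeing the data, was 4 to 6. Without its most abundant member, a family's share of Kcn UMIs became 27.9% in astrocytes, 14.9% in oligodendrocytes, 8.63% in precursors, 20.1% in newly formed oligodendrocytes, 29.3% in microglia, 9.75% in mural cells and 4.07% in neurons; the microglial share was 53.4% with all deposited cells. The causes of these changes were not tested, apart from the removal of genes itself.

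With the replicate block, which leaves out female replicate 7, the count was 2 in astrocytes (Kcnn2 and Kcnt1, without Kcnd3), 1 in oligodendrocytes and 0 in the other 8 groups. Whether the numbers pair the samples is not known. Correlations of same-numbered libraries ran from -0.187 to 0.179, and at most 3 of 6 pairs in a group were over 0.1. Libraries with different numbers were not correlated, so these values cannot settle it. Few Kcn genes passed the filter on low counts in some classes: 4 in newly formed oligodendrocytes, 5 in mural cells and 0 in endothelial cells, so sex differences there were mostly not testable.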
